A study of Homo sapiens with 2 samples.

Results

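Genes of the mitochondrial ribosome and of respiratory chain complexes III and IV were followed in cells of the line AsPC-1, which derives from a human pancreatic adenocarcinoma, grown as a 3D culture under a collagen gel overlay. One culture was left uncompressed and the other was held under a compressive stress of 2.9 mmHg, each for 24 h, and the medium, the serum and the line were the same for both. Total RNA from each culture went onto its own array of the type Human Gene 2.0 ST, and the deposited levels are log2 RMA signals, so a difference of 1 is a 2-fold difference. The members were all genes whose platform symbol begins with MRPL or MRPS and a number, with COX and a number or with UQCR, plus CYC1, taking for each gene its brightest probe set. This gave 109 of 14884 named genes, 78 of the ribosome and 31 of the respiratory chain. By the RefSeq biotype, 102 of them are protein-coding (73 and 29) and 7 are pseudogenes or long non-coding RNAs, which are described apart.

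Each group has 1 array, so differences could be checked against no replicate, nothing was tested, and precision is limited by the number of arrays. The words "higher" and "lower" therefore compare these 2 arrays. The only internal measure of error came from 135 protein-coding genes with exactly 2 differing probe sets, both above 4.79, the median level over genes: the SD of a single probe set's difference was 0.186. That median level served as a floor below which a value may be background. Of the protein-coding members, 91 lay at or above it by the mean of both arrays and 11 below it, 2 of the ribosome and 9 of the respiratory chain. In bulk RNA, fewer cells of a kind and less RNA per cell cannot be told apart. Of 6 named epithelial markers, 5 lay above the floor: KRT8 read 6.13 uncompressed and 6.21 compressed, KRT18, KRT19, EPCAM and CEACAM6 read between 10.43 and 11.71 on both arrays, and the duct keratin gene KRT7 lay below it (3.36 uncompressed, 3.78 compressed). Of the named markers of other cell types, DCN, CD14, PECAM1, VWF and CPA1 lay below the floor on both arrays. LUM, listed as a fibroblast marker, read 9.75 and 9.39, and CD68, listed as a leukocyte marker, 8.45 and 9.26 (1.75-fold higher). Both samples are titled as AsPC-1 cells. The part of these markers in the results was not tested.

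Mitochondria keep a small genome that encodes core subunits of the respiratory chain, and a dedicated ribosome translates them. All proteins of that ribosome are encoded in the nucleus, made in the cytosol and imported, and they join mitochondrial ribosomal RNA in a large and a small subunit. Many have bacterial counterparts and others are particular to mitochondria. Complex III passes electrons from ubiquinol to cytochrome c, and complex IV, cytochrome c oxidase, passes them to oxygen. Both combine mitochondrially encoded core subunits with nuclear-encoded ones, and complex IV needs assembly factors that deliver heme and copper.

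Differences between the cultures were small for both the ribosome and the respiratory chain. Of the 73 protein-coding ribosomal members, 0 were at least 1.5-fold (0.585 on the log2 scale) higher or lower in the compressed culture, where 3.08% of all protein-coding genes were at least that much higher and 2.26% lower. Their differences, compressed minus uncompressed, ran from -0.42 for MRPL39 to 0.41 for MRPL55, with a median of -0.051 and an interquartile range from -0.17 to 0.11. Of the 29 respiratory chain members, 1 passed this size upwards and 0 downwards. That gene was UQCRB, whose probe set lay below the floor in the uncompressed culture and may read background there. Their median was -0.065 and their interquartile range ran from -0.14 to 0. No member reached 2-fold, beside 0.604% of all protein-coding genes that were at least 2-fold higher. Above the floor 0 members of either group passed 1.5-fold, beside 3.59% of protein-coding genes higher and 0.974% lower, and above the 75th percentile of level 0 were higher, beside 3.31%. The median over all 11915 protein-coding genes was -0.0093, with an interquartile range from -0.20 to 0.16.

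Set against each other, the ribosome's median was above that of the respiratory chain by 0.014. The sign of this gap was not settled: it was -0.0048 among genes at or above the 75th percentile of level, -0.0076 by the mean and -0.00063 against the complex III and IV subunits alone. Without a level filter, which group was more spread depended on the measure. The interquartile range spanned 0.279 for the ribosome and 0.137 for the respiratory chain, against 0.357 for all protein-coding genes. The SD ran the other way, 0.183 for the ribosome and 0.222 for the respiratory chain, which includes UQCRB. Among genes at or above the floor the interquartile range spanned 0.271, 0.108 and 0.329, and the SDs were 0.184 and 0.144. There the ribosome was the more spread group by both measures.

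At a smaller size, a difference of 0.322 on the log2 scale, 6 ribosomal members were lower and 2 higher, and 2 respiratory chain members were lower and 1 higher. Of all protein-coding genes 12.9% were lower by at least that much and 11.8% higher. Above the floor these shares were 7.78% lower and 13.1% higher, beside the same 6 and 2 of 71 ribosomal members and 1 and 0 of 20 respiratory chain members. A negative difference was found in 40 of 73 ribosomal members (54.8%) and 20 of 29 respiratory chain members (69.0%), against 50.9% of all protein-coding genes. Above the floor the counts were 40 of 71 and 15 of 20 against 46.8%. Among genes at or above the 75th percentile of level, they were 37 of 57 and 13 of 16 against a background of 47.7%. The negative differences were small in both groups: the medians of these brighter members were -0.085 and -0.080, against 0.0059 for all protein-coding genes of that level.

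**Figure D1:**
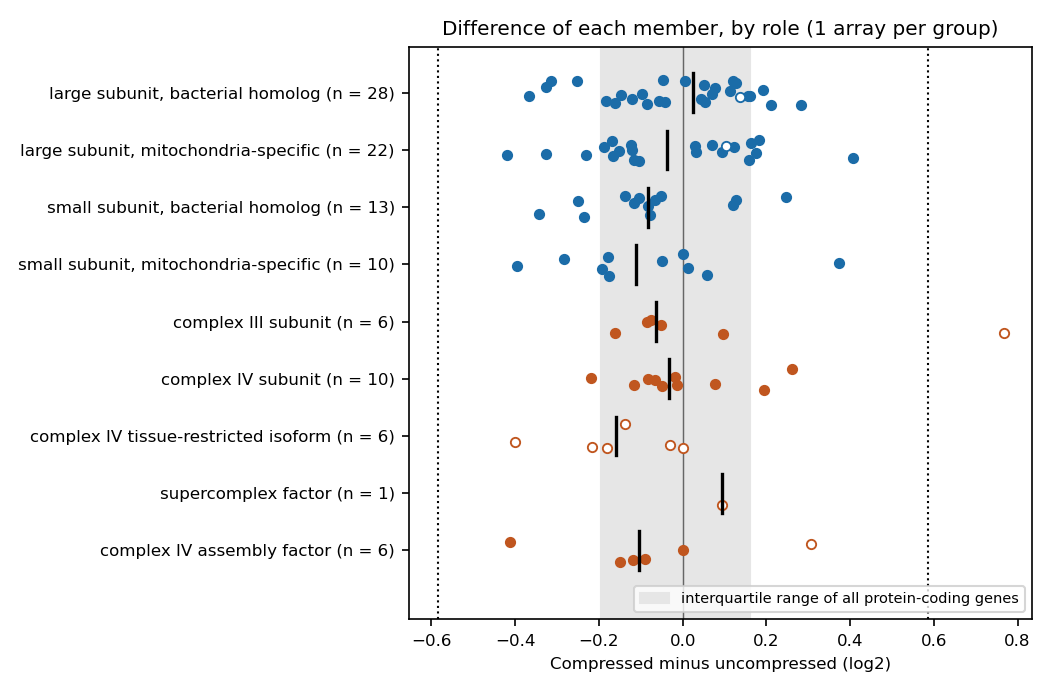
Difference of each protein-coding member between the compressed and the uncompressed array (x axis, log2), one row per role, with the number of members in brackets. Filled points lie at or above the level floor of 4.79 and open points below it; black bars are medians, the grey band is the interquartile range of all protein-coding genes (-0.20 to 0.16) and dotted lines mark 1.5-fold. The only point past a dotted line is UQCRB, an open point at 0.77.

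The start regions of these genes were searched for 4 motifs chosen because factors that bind them are known for nuclear genes of mitochondria: GCGCATGCG for NRF1, CCGGAAGT for ETS factors, AAGATGGCG for YY1 and TCAAGGTCA for the estrogen-related receptors. RefSeq windows of GRCh38.p14, from 250 bases before to 50 after an annotated start, were matched for 87 of the 102 protein-coding members, and both strands were read. The NRF1 letters overlap their own reverse complement, so a site can match on both strands and counts once. A gene counted where any of its windows held the letters. The motif named for YY1 was found for 12 of 65 ribosomal genes (18.5%) and 1 of 22 respiratory chain genes (4.55%), against 3.57% of 9707 protein-coding genes and 2.64% of their 13726 windows. The ETS motif was found for 12 of 65 (18.5%) and 4 of 22 (18.2%), against 7.64%. The NRF1 motif was found for 2 of 65 (3.08%) and 3 of 22 (13.6%), against 3.36%. The motif of the estrogen-related receptors was found in 0 members, against 0.247% of genes. Genes with several windows had more chances to hold a motif. By window, the shares for the YY1 motif were 14.8% for the ribosome and 3.57% for the respiratory chain, and the ETS motif lay in 17.3% and 14.3% against 5.81%. These letters are a description of the sequence, not sites of binding.

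The sites of the YY1 motif are shown because it is the motif whose share in the ribosomal genes stood furthest above that in all genes. Each line gives 30 bases on the strand of the gene, 5′ to 3′, with the motif or its reverse complement in capitals.
MRPL22, chr5:154941093-154941122, plus strand: gtagcgggagggcgaAAGATGGCGgcggca
MRPL32, chr7:42932143-42932172, plus strand: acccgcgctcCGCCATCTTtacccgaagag
MRPL36, chr5:1799854-1799883, minus strand: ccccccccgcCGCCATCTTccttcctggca
MRPL38, chr17:75904859-75904888, minus strand: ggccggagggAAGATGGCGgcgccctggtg
MRPL42, chr12:93467512-93467541, plus strand: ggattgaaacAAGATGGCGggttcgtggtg
MRPL46, chr15:88467361-88467390, minus strand: gggagaacgaAAGATGGCGgcgcccgtaag
MRPL50, chr9:101398576-101398605, minus strand: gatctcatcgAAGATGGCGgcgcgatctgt
MRPL52, chr14:22829779-22829808, plus strand: acgatgacccAAGATGGCGgagccgtgatt
MRPL52, chr14:22829813-22829842, plus strand: acccagattcAAGATGGCGacttcctgctt
MRPS10, chr6:42217833-42217862, minus strand: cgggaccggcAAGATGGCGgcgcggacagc
MRPS18A, chr6:43687763-43687792, minus strand: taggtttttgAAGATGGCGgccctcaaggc
MRPS18B, chr6:30617853-30617882, plus strand: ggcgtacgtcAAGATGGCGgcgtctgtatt
MRPS30, chr5:44808950-44808979, plus strand: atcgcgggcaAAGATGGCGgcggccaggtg
UQCRC1, chr3:48609604-48609633, minus strand: ctgcagctggAAGATGGCGgcgtccgtggt
In 9 of the 12 ribosomal genes the motif lay on the strand of the gene and began 7 to 36 bases after the annotated start. MRPL32 and MRPL36 held it on the other strand before the start, and MRPL52 held it in 2 places before the start. UQCRC1, of complex III, held it after the start.

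Sites of the other motifs are shown for genes chosen after their values were seen. For the ETS motif they are the 4 holders with the largest differences, COX17, MRPL27, COX8A and MRPL16, and for NRF1 the holders with the highest and the lowest difference, COX17 and COX18.
COX17, chr3:119677378-119677407, minus strand: tagagcgactgCCGGAAGTgactgcggacg
COX8A, chr11:63974590-63974619, plus strand: ccagctccagaACTTCCGGccagcgcagcc
MRPL16, chr11:59810767-59810796, minus strand: gagtgaacacaACTTCCGGccccactgagc
MRPL27, chr17:50373174-50373203, minus strand: acttttcgagaCCGGAAGTgagtgatcgaa
MRPL27, chr17:50373218-50373247, minus strand: ccacgcagggcCCGGAAGTagatctcctga
COX17, chr3:119677503-119677532, minus strand: gggcctccttGCGCATGCGctgaagggggc
COX18, chr4:73069744-73069773, minus strand: gcaggcaggcGCGCATGCGctttatgcccg
MRPL27 held the ETS motif in 2 places and differed by 0.28, whereas MRPL16 held it once and differed by -0.25. COX8A, with the reverse complement, differed by 0.26, but by 0.0018 after repeated quantile normalization. COX17, with both motifs, differed by 0.31 at a level below the floor. COX18 differed by -0.15, within the SD of a single probe set's difference. Of the ETS holders, MRPL27 and MRPL16 lay on opposite sides of 0.

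The large ribosomal subunit, which joins amino acids into a chain, was divided between both directions. Of its 50 members, 24 were lower (48.0%) and 26 higher, near the background of 50.9% lower. None passed 1.5-fold, beside 3.08% of all protein-coding genes higher and 2.26% lower, and the median was 0.018. The sign of this median was not settled: it was -0.018 over the 48 members above the floor, -0.071 over the 38 at or above the 75th percentile of level (22 lower and 16 higher), -0.0084 after loess correction and -0.033 after repeated quantile normalization. The last of these also moved the median of all protein-coding genes, to -0.023. Among the 28 members with bacterial counterparts the median was 0.025, and among the 22 that are particular to mitochondria it was -0.038. Above the floor these medians were 0.0066 and -0.10. At or above the 75th percentile of level both were negative, at -0.046 and -0.12.

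The largest negative differences of the large subunit were in MRPL39, MRPL1, MRPL48 and MRPL11. MRPL39, a protein particular to the mitochondrial ribosome, read 6.67 uncompressed and 6.26 compressed, a level 1.34-fold lower. MRPL1, the counterpart of the bacterial protein of the L1 stalk, where spent tRNA leaves, read 6.16 and 5.79 (1.29-fold lower). MRPL48 read 6.88 and 6.55, and MRPL11, at the base of the stalk that recruits translation factors, 7.83 and 7.50. These 4 are all the large subunit genes with a negative difference past 0.322. MRPL35 (7.45 and 7.14), MRPL16 (8.05 and 7.80), MRPL42 (7.35 and 7.12) and MRPL49 (8.43 and 8.24) followed with differences of -0.31, -0.25, -0.23 and -0.19.

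On the other side MRPL55, also particular to mitochondria, read 5.98 uncompressed and 6.39 compressed, 1.33-fold higher. MRPL27, whose bacterial counterpart reaches towards the site of peptide bond formation, read 6.27 and 6.55 (1.22-fold higher). MRPL19 read 6.31 and 6.52. MRPL10, which anchors the flexible stalk, read 5.35 and 5.54, so that the stalk genes MRPL10 and MRPL11 lay on opposite sides of 0 (0.19 and -0.33). MRPL43, MRPL38, MRPL40 and MRPL33 were higher by 0.18, 0.18, 0.16 and 0.16, values within the SD of a single probe set's difference.

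Large subunit proteins with roles beyond the structure differed little. MRPL44, which has a fold related to RNase III, read 8.45 uncompressed and 8.30 compressed. MRPL58, a peptidyl-tRNA hydrolase that sits in the ribosome, read 9.33 and 9.21, and MRPL45, which lies near the exit of the peptide tunnel at the inner membrane, 9.34 and 9.22. Their differences were -0.15, -0.12 and -0.12. MRPS30 and MRPS18A, which carry small subunit names but belong to the large subunit in its structure, differed by -0.10 and 0.095. The large subunit members not named so far lay between -0.18 and 0.16. They include MRPL3 (9.44 and 9.26), a counterpart of a core bacterial protein, and MRPL20, near 6.13 on both arrays.

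**Figure D2:**
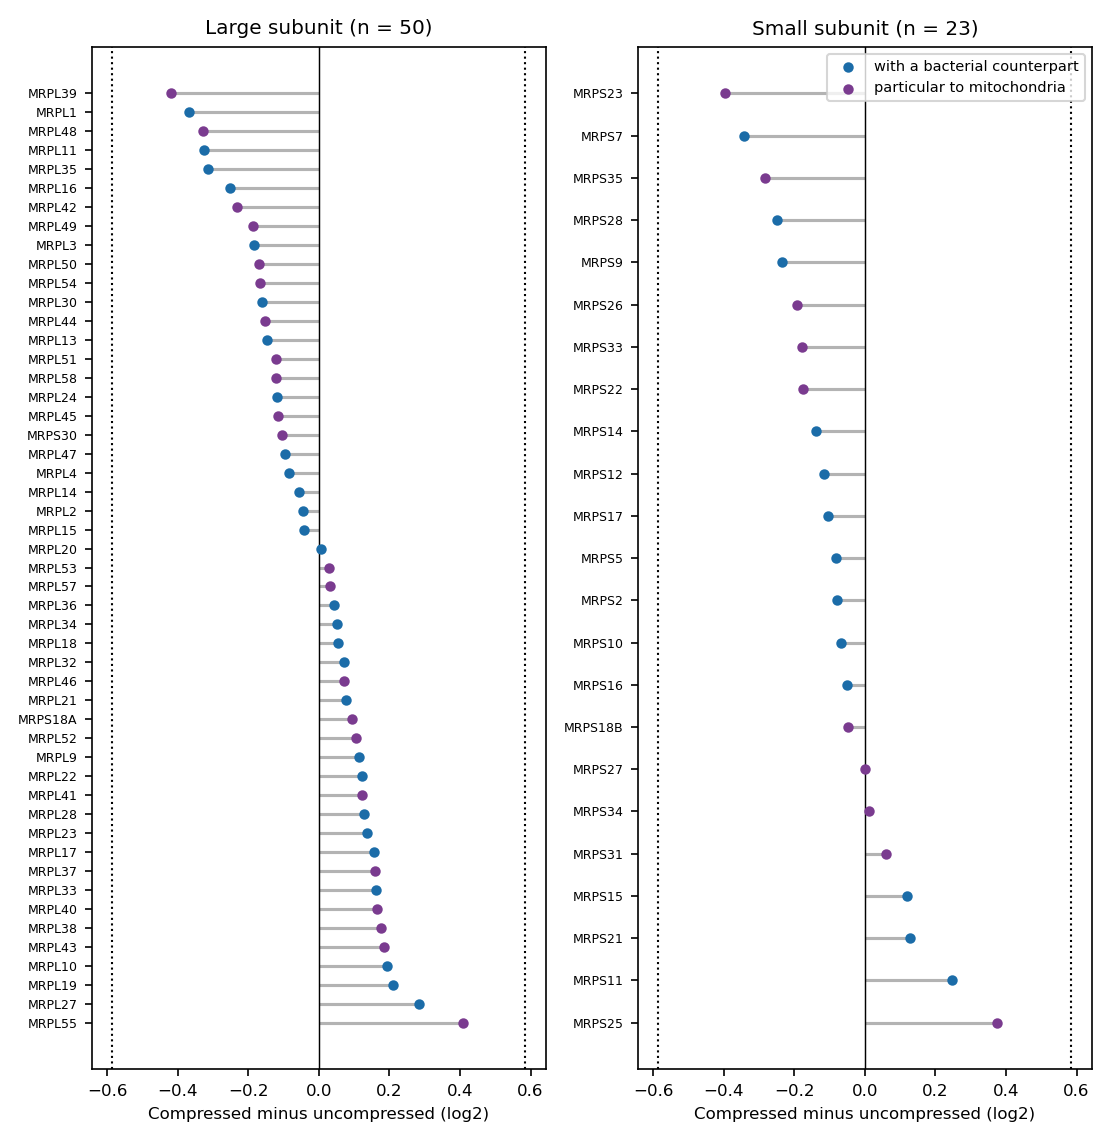
Difference between the compressed and the uncompressed array (x axis, log2) for each of the 50 large subunit and 23 small subunit members, ordered by value; blue points have a bacterial counterpart and purple points are particular to mitochondria, and dotted lines mark 1.5-fold. The large subunit ranges from MRPL39 at -0.42 to MRPL55 at 0.41 with 24 below and 26 above 0, while 16 of 23 small subunit members lie below 0, from MRPS23 at -0.40 to MRPS25 at 0.37. Of all protein-coding genes 50.9% lie below 0.

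The small ribosomal subunit, which reads the messenger RNA, had a lower median than the large one. Of its 23 members, 16 were lower, 6 higher and 1 equal, against a background of 50.9% lower, and 0 passed 1.5-fold. The median was -0.082, and it lay between -0.12 and -0.073 under the alternatives of filter, probe sets and scaling. At or above the 75th percentile of level the small subunit median was -0.11, beside -0.071 for the large one, so the gap was narrower there. The difference between the subunits was not tested. The 13 members with bacterial counterparts had a median of -0.082 and the 10 others of -0.11.

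MRPS23, particular to mitochondria, had the largest negative difference, with 8.89 uncompressed and 8.50 compressed (1.32-fold lower). MRPS7, the counterpart of a protein that organises the head of the bacterial small subunit, read 8.73 and 8.38 (1.27-fold lower). MRPS35 read 10.33 and 10.05, MRPS28 6.84 and 6.59, and MRPS9 7.33 and 7.10. Their differences ran from -0.40 to -0.24. MRPS26, MRPS33 and MRPS22, all particular to mitochondria, differed by -0.19, -0.18 and -0.18. MRPS12, whose bacterial counterpart lies at the decoding centre, read 6.66 and 6.54.

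Few small subunit genes were higher. MRPS25 read 5.95 uncompressed and 6.32 compressed (1.30-fold higher) and MRPS11, of the platform of the subunit, 7.48 and 7.73 (1.19-fold higher). MRPS21 and MRPS15 were higher by 0.13 and 0.12, and MRPS31 and MRPS34 by 0.059 and 0.012. MRPS27 carried exactly the same value, 5.26, on both arrays. Exactly equal values were found for 4 of the 109 members (MRPS27, COX19, COX8C and COX10-DT), beside 5.82% of all probe sets, and such a value says nothing of a difference.

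Complex III was represented by 6 genes. CYC1, cytochrome c1, which hands electrons to cytochrome c, read 9.49 uncompressed and 9.33 compressed, a difference of -0.16. The core subunit genes UQCRC2 (10.52 and 10.45) and UQCRC1 (8.09 and 8.04) differed by -0.076 and -0.053. UQCRH, the acidic hinge protein, read 6.42 and 6.33, and its near-identical paralog UQCRHL 9.31 and 9.41. The probes of this pair may share targets, which makes the split of signal among them uncertain. UQCRB, which binds ubiquinone within the complex, read 4.20 and 4.96. The measured difference of 0.77 starts from an uncompressed level below the floor, and the mean of both arrays (4.58) lay below it too, so its size is uncertain. The pseudogene UQCRBP1 read 2.72 and 2.57. UQCRB aside, the genes of complex III lay between -0.16 and 0.097.

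The 10 general subunit genes of complex IV lay close together, with a median of -0.033. Of these 7 were lower and 3 higher, beside 50.9% of all protein-coding genes lower, and 10 genes are few for such a count. COX4I1, a subunit through which adenine nucleotides regulate the enzyme, read 10.54 uncompressed and 10.42 compressed. COX5A read 9.35 and 9.27, and COX5B, a zinc-binding subunit, 5.50 and 5.46. COX6B1 and COX7C, at differences of -0.018 and -0.013, were nearly level. COX7B, at 7.11 and 6.90, was the lowest of these genes (-0.22) and COX7A2 differed by -0.065.

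COX8A and COX6C were the highest of the complex IV subunits. COX8A read 10.66 uncompressed and 10.92 compressed, a difference of 0.26 that was 0.0018 when the named probe sets were quantile normalized again. The difference of COX8A therefore depended on the scaling. COX6C read 4.76 and 4.95, around the floor. COX6A1 read 11.97 and 12.04, while its second probe set, far below the floor at 2.32 and 1.91, differed by -0.41. The levels of these probe sets are so unlike that it is uncertain whether both read this gene, and whether the brighter one reads a related copy was not tested.

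The isoforms of complex IV that are restricted to certain tissues, such as muscle, lung or testis, all lay below the floor. COX4I2, known from lung, read 4.57 uncompressed and 4.17 compressed, and the muscle isoforms COX6A2 and COX7A1 read 4.56 and 4.34, and 3.62 and 3.49. The testis isoforms COX6B2, COX7B2 and COX8C read 3.04 and 2.86, 2.66 and 2.63, and 1.72 on both arrays. Whether any of the 6 was above background is unknown, so these values do not show an order between them. COX7A2L, a relative of COX7A2 that takes part in joining complexes III and IV, was also below the floor (4.39 and 4.48).

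Of the 6 named assembly factors of complex IV, 4 were lower (66.7%), 1 higher and 1 equal, beside 50.9% of all protein-coding genes lower. So few genes cannot set this count apart from that share. COX11, which passes copper to the catalytic core, read 6.82 uncompressed and 6.40 compressed. This 1.33-fold lower level was the largest negative difference of the respiratory chain members. COX18, which inserts a core subunit into the inner membrane, read 6.42 and 6.27, and COX20, a chaperone of the same subunit, 6.83 and 6.74. COX14 read 4.90 and 4.78, at the floor, and COX19 read 5.24 on both arrays. COX17, the copper chaperone of the intermembrane space, lay below the floor (3.23 and 3.54), so the copper factors COX11 and COX17 are not comparable in size.

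**Figure D3:**
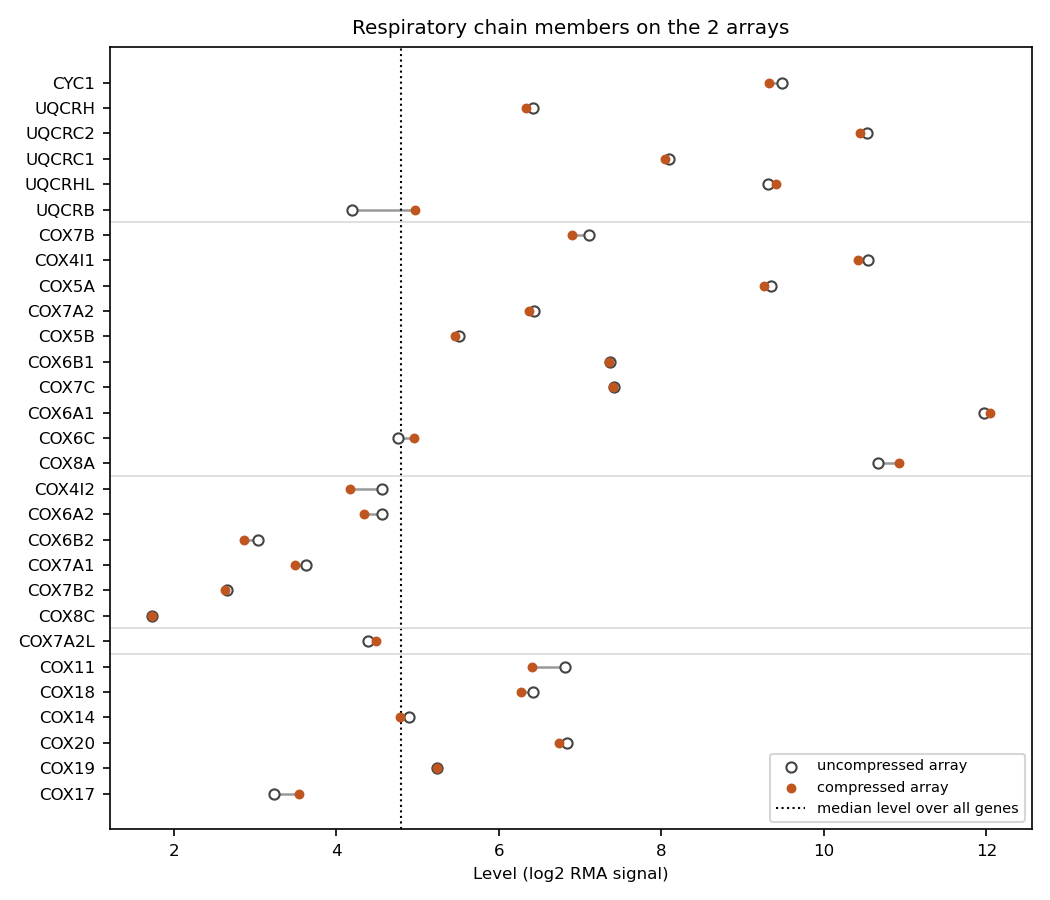
Levels (x axis, log2 RMA signal) of the 29 protein-coding respiratory chain members on the uncompressed array (open points) and the compressed array (filled points), grouped from top to bottom as complex III subunits, complex IV subunits, tissue-restricted isoforms, COX7A2L and assembly factors; the dotted line is the median level over all genes, 4.79. The points of most genes nearly coincide, and all 6 isoforms, COX7A2L and COX17 lie left of the line. UQCRB (4.20 and 4.96), COX6C (4.76 and 4.95) and COX14 (4.90 and 4.78) cross it.

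For the members with more than 1 named probe set, agreement varied. Both probe sets of MRPL44 differed by -0.15, although the dimmer one lay at 2.29 and 2.14. Those of MRPS16 differed by -0.051 and -0.20 and those of MRPS2 by -0.078 and -0.18. The 7 probe sets named MRPS18B carried identical values (8.27 and 8.22) and were counted once.

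The 7 members that are not protein-coding had differences from -0.57 to 0.24. The pseudogene MRPL42P5 read 2.07 uncompressed and 1.51 compressed, below the floor on both arrays, and MRPS31P5 was also below it (3.90 and 4.02). MRPL45P2 read 5.40 and 5.41, and the near-identical sequence of its parent gene MRPL45 leaves the division of signal between them uncertain. The antisense RNA genes MRPL20-AS1 and MRPL23-AS1 were higher by 0.15 and 0.24, beside 0.0066 for MRPL20 and 0.14 for MRPL23, which itself lay below the floor. COX10-DT read 4.96 on both arrays.

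Genes that act with the members were also described. Their counts stand beside the shares over all protein-coding genes, of which 50.9% were lower, 3.08% at least 1.5-fold higher and 2.26% at least 1.5-fold lower, or 46.8%, 3.59% and 0.974% above the floor. Of 25 listed genes for assembly of the mitochondrial ribosome 20 were named, all above the floor. Of these 15 were lower, 4 higher and 1 equal, with a median of -0.11. As few of all genes passed 1.5-fold, 0 of 20 is near the background. GTPBP10, a GTPase that matures the large subunit, read 7.79 uncompressed and 7.34 compressed (1.36-fold lower). The RNA helicase gene DDX28 and the GTPase gene MTG2 were 1.27-fold and 1.26-fold lower, while MTG1 was higher by 0.20. Proteins of the ribosome that carry other names lay on both sides: DAP3, of the small subunit, was higher by 0.34, whereas PTCD3, of the same subunit, differed by -0.26. CHCHD1 differed by 0.043. OXA1L, the insertase that receives newly made proteins at the inner membrane, was higher by 0.32.

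Translation factors of mitochondria had a median of 0.050 over 8 named genes. MRRF, the ribosome recycling factor, read 5.55 uncompressed and 6.23 compressed and was the only gene of this list past 1.5-fold, with a difference of 0.67. Against 3.59% of genes above the floor, 1 call among 8 genes says little of the list. MTRF1L, a release factor gene, was higher by 0.27. Of 13 listed genes for transcription and upkeep of mitochondrial DNA 3 were named. MTERF1, a terminator of mitochondrial transcription, read 4.81 and 5.42 (1.53-fold higher), from an uncompressed level just over the floor of 4.79. The polymerase gene POLRMT and the helicase gene TWNK differed by 0.049 and -0.057. Beside the same 3.59%, 1 call among 3 genes says little of this list.

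Among 22 other genes for assembly of complexes III and IV, 15 were lower and 7 higher, the median was -0.047 and 0 passed 1.5-fold. LRPPRC, which stabilises mitochondrial messenger RNAs, read 10.22 uncompressed and 9.79 compressed (1.34-fold lower), and LYRM7, a chaperone of the iron-sulfur subunit of complex III, 6.41 and 6.02 (1.31-fold lower). COA4 and PET100, factors of complex IV, were higher by 0.36 and 0.31. The 22 named genes of protein import had a median of -0.0048 (0.0042 after centring), with TIMM9 at -0.33 and TIMM10B at 0.24. The 7 named enzymes of the TCA cycle lay between -0.19 (OGDH) and 0.11 (IDH3G), with a median of -0.062.

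Of the regulators, NRF1, a factor for many nuclear genes of mitochondria, read 5.55 uncompressed and 5.52 compressed, YY1 6.71 and 6.79, and ESRRA, an estrogen-related receptor, 6.30 and 6.16. MYC, a driver of ribosome production, read 8.96 and 8.77. These 4 differed by less than 0.20. The other named regulators, ESRRG (3.00 and 3.36) and ESRRB (4.27 and 4.06), lay below the floor and differed by 0.36 and -0.21. Genes of complexes I and II and of the mitochondrial genome had 0 named probe sets here and were not analysed here.

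Cytosolic ribosomal proteins, the counterparts outside mitochondria, lay mostly above 0. Of 79 listed genes 46 were named, with a median of 0.14, and 7 were lower (15.2%), 38 higher and 1 equal. Of all protein-coding genes 50.9% were lower. Of the 73 mitochondrial ribosomal genes 40 were lower (54.8%), near that share without a level filter. Above the floor the count was 40 of 71 (56.3%), against 46.8%. After repeated quantile normalization the medians were 0.034 for the cytosolic and -0.079 for the mitochondrial proteins, beside -0.023 for all protein-coding genes. No test of this gap can be made with these arrays.

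**Figure D4:**
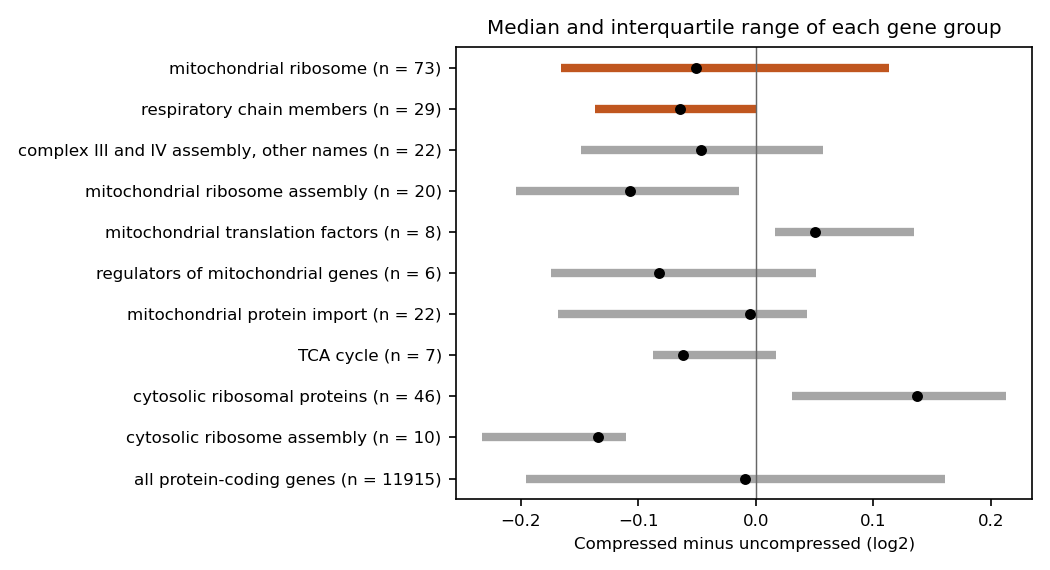
Median (black point) and interquartile range (bar) of the difference between the compressed and the uncompressed array (x axis, log2) for each gene group, with the number of named protein-coding genes in brackets. The ribosome and respiratory chain members (orange) lie at -0.051 and -0.065, the cytosolic ribosomal proteins at 0.14, and all protein-coding genes at -0.0093.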

How the data were processed

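The authors deposited log2 signals, with 53617 probe sets per array. The submitters' processing notes name the tools RMA and Transcriptome Analysis Console. RMA subtracts background, equalises the distributions of the arrays and summarises probes, so a change shared by all genes is removed and differences of dim probe sets are compressed. Their versions, and the genome build, were not given in the sources used here. Groups came from the treatment label of each sample.

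The platform annotation named 1 gene for each of 16098 probe sets and several for 0, and the others are unnamed here. All 14884 genes were found in RefSeq (GRCh38.p14), which gave symbol and biotype, and the brightest probe set of each gene was used. Medians and counts at 1.5-fold over protein-coding genes were set beside those of all 11915 protein-coding genes. Any member could be named, first the 8 largest differences in each direction of each group, then others by role, and up to 3 per direction of each list. Members and lists were chosen with earlier results of these data known. Computations were tested on simulated data and used pandas 2.3.3 and NumPy 2.4.6 in Python 3.11.15, with loess from statsmodels 0.14.6 and figures from matplotlib 3.10.9. The alternatives were level filters, the mean of probe sets, loess correction (span 0.3), centring, repeated quantile normalization, other sizes and gene sets, and the mean. Protein lengths, foreseen as a description, were not analysed here.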

Additional observations from a re-analysis of the deposited data

How the results depend on the processing

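The ribosome median (-0.051) and the respiratory chain median (-0.065) were negative under each alternative run. The ribosome median was -0.085 with a filter at the 75th percentile of level and -0.079 after repeated quantile normalization. Repeated quantile normalization also moved the median of all protein-coding genes, from -0.0093 to -0.023. Their gap of 0.014 turned to -0.0048 with that filter, -0.0076 by the mean and -0.00063 with subunits only. The large subunit median (0.018) turned to -0.018 with the filter at the median level, -0.071 at the 75th percentile, -0.0084 after loess correction and -0.033 after repeated quantile normalization. The list of protein import genes turned to 0.0042 after centring. After repeated quantile normalization the cytosolic ribosomal proteins were at 0.034 and the genes for assembly of the mitochondrial ribosome at -0.16. The cause was not tested. Members past 1.5-fold numbered 1 higher and 0 lower, and 0 higher under either level filter, which leaves out UQCRB. At a difference of 0.322 they numbered 3 and 8, and at 2-fold 0 were higher. Of the 102 members, 101 moved by less than 0.186 after quantile normalization (all but COX8A) and 101 with the mean of probe sets (all but COX6A1, at -0.17). Many members' own differences are smaller than 0.186, so these counts do not show that a sign or size held. After quantile normalization COX6A1 went from 0.077 to -0.048, MRPL20 from 0.0066 to -0.066 and UQCRC2 from -0.076 to -0.21. No paired analysis was possible because each group has 1 sample. No detection calls or scanner signals were used here, so whether dim probe sets were above background is unknown, and 1 array per group leaves the spread between cultures unknown.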

Other observations

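Genes for assembly of the cytosolic ribosome, nucleolar proteins that process ribosomal RNA, were lower in 9 of the 10 named genes of 18 listed, with a median of -0.13, beside 46.8% of protein-coding genes above the floor. None of the 10 passed 1.5-fold, beside 0.974% of those genes lower and 3.59% higher. BOP1 read 7.57 uncompressed and 7.18 compressed (1.31-fold lower), NOP2 differed by -0.31 and FBL, the methyltransferase fibrillarin, by -0.26, while NOP58 differed by 0.029. Of the cytosolic ribosomal protein genes themselves 38 of 46 lay above 0 and 7 below, beside 50.9% of all protein-coding genes below. They ran from RPL32 at -0.18, below the floor, to RPL31 at 0.58, whose uncompressed level of 4.73 was just under the floor.

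Ribosomal members with the YY1 motif in a start window had a median difference of 0.057, and those without it -0.082. Of the 12 holders 7 were higher and 5 lower, beside 50.9% of all protein-coding genes lower. Among these holders only MRPS10 and MRPS18B belong to the small subunit. The split by motif therefore overlaps with that by subunit (medians 0.018 for the large and -0.082 for the small one), and they were not separated. Over all protein-coding genes with a window the medians were -0.0064 with and -0.0052 without it. For the ETS motif the medians were 0.0094 with (12 holders) and -0.066 without it in the ribosome, and 0.017 and -0.0089 over all genes. In the respiratory chain they were 0.11 (4 holders) and -0.070. Of these 4 holders, COX17 (0.31) lay below the floor and COX8A (0.26) was at 0.0018 after repeated quantile normalization. The others, COX5B and UQCRH, differed by -0.048 and -0.085. For the NRF1 motif the medians were 0.14 and -0.066 in the ribosome (2 holders), 0.077 and -0.065 in the respiratory chain (3 holders), and 0.021 and -0.0065 over all genes. The value of 0.077 is that of COX6A1, whose second probe set differed by -0.41. The members with the YY1 motif ranged from -0.23 (MRPL42) to 0.18 (MRPL38). These splits have no test, since genes on 1 pair of arrays are not replicates.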
